A study of Homo sapiens with 12 samples.

Results

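Kinesins are motor proteins that spend ATP to move along microtubules or to take microtubule ends apart. Their genes were examined here in JJN3, a human multiple myeloma cell line. Every row of the deposited gene table whose symbol is KIF followed by a number and an optional letter A to C, or KIFC1, KIFC2 or KIFC3, was taken, which gave 42 of 59276 gene symbols. By the textbook role of the protein, 14 were placed with the mitotic kinesins, 15 with the transport kinesins and 13 with other kinesins. The study followed gene expression by RNA-seq after chemical inhibition of the type I protein arginine methyltransferases and after deletion of PRMT1, the main enzyme of that type. JJN3 cells received DMSO, the solvent, or MS023, an inhibitor of type I enzymes, at 10 µM for 3 days. Cas9-expressing JJN3 cells carried a control guide (isgCtrl) or the single PRMT1 guide iPRMT1_1 (PRMT1-KO), and guide expression was induced in both with doxycycline for 3 days. Each of the 4 groups had 3 replicates.

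Mitotic kinesins build the spindle, move chromosomes and complete cell division, and most are made for the part of the cell cycle that leads into mitosis. Transport kinesins carry vesicles, organelles and RNA towards the ends of microtubules, and are needed in resting cells too. In myeloma, KIF11, the motor that pushes spindle poles apart, has been a drug target.

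The Cas9 cells were pools, sorted for the mCherry reporter of the Cas9 virus and selected with puromycin for the guide, so a PRMT1-KO sample may mix edited and unedited cells, and a single guide was sequenced. The labels do not say whether replicates were separate cultures, so p-values measure the spread between these samples, which may be technical. PRMT1 read 9.76, 9.76 and 9.73 in log2(TPM+1) in isgCtrl and 8.24, 8.28 and 8.24 in PRMT1-KO, and fell by 1.5 (SE 0.045, adjusted p = 0.000720), to 35.4% of the control mean in TPM. Under MS023 its level differed from DMSO by 0.043 (adjusted p = 0.597). TPM scales reads by gene length and by a fixed total per sample, so levels of different genes can be compared, but the values do not show how deeply a sample was sequenced. Of 7 plasma cell markers, TNFRSF17, IRF4, PRDM1, XBP1 and SDC1 were above 4 in all samples, while CD38 was between 0.79 and 2.68 and MZB1 was between 0.42 and 1.77 in the 6 Cas9 samples, against at least 6.70 in the others. Called here means an adjusted p under 0.05 in limma and an absolute difference above 0.48. With MS023, XBP1, MZB1 and PRDM1 were called higher and CD38 lower, and the 7 summed to 707 to 745 TPM in DMSO, 1104 to 1143 with MS023, 652 to 667 TPM for isgCtrl and 627 to 630 TPM for PRMT1-KO. Of 8 markers of other lineages, EPCAM, an epithelial gene, stood at 5.89 to 6.55 over 12 samples and was called lower with MS023 (-0.56). PECAM1 of endothelium (0.10 to 3.07) and COL1A1 of fibroblasts (0.15 to 2.82) were called higher with MS023 (1.54 and 0.68). COL1A1 had a mean above 1 with MS023 but not in DMSO, so it could only be tested because the treated group was high. HBB (1.05 to 2.86) was tested and not called, and CD14 (0 to 1.62), CD3E (0.063 to 0.62), MS4A1 (0 to 0.38) and PAX5 (0 to 0.062) had no group mean above 1 and were not tested. Their sum ranged over 94.7 to 97.0 TPM in DMSO and 70.7 to 77.2 TPM with MS023, and over 78.4 to 85.4 TPM for isgCtrl against 86.7 to 90.8 TPM for PRMT1-KO. In PRMT1-KO none of the 7 plasma cell markers and none of 3 tested markers of other lineages was called, against 0.781% of all genes. There MZB1, CD38 and COL1A1 could only be tested because isgCtrl had a mean above 1, and PECAM1 was not tested. The part of these markers in the kinesin results was not tested.

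With MS023 the mitotic kinesins were lower and the transport kinesins differed little from DMSO. All 12 mitotic kinesins that could be tested fell, by 0.77 for KIF22 to 1.75 for KIF14 on the log2(TPM+1) scale, with adjusted p between 6.80e-05 and 0.0102. None of 10 transport kinesins tested was called, 3 had an unadjusted p under 0.05 (56.5% of all genes did), and their differences ran from -0.28 for KIF3C to 0.41 for KIF1B. Of all 12903 genes tested, 19.3% were called lower and 11.6% higher, so calls were common with MS023. After median-ratio scaling between samples the split over all genes was even, with 1964 lower and 1905 higher in place of 2486 and 1500, and the mitotic kinesins were called lower all the same. In bulk RNA, fewer dividing cells and less of a transcript per cell cannot be told apart.

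Summed over its 14 genes, the mitotic group stood at 384, 362 and 383 TPM in the DMSO replicates and at 154, 152 and 162 TPM with MS023. The group mean went from 376 ± 12.4 to 156 ± 5.24 TPM (SD, n = 3), to 41.5% of DMSO. The 15 transport kinesins summed to 145, 118 and 146 TPM in DMSO and to 122, 120 and 131 TPM with MS023, or 91.0% of DMSO, and the ranges overlapped. Mitotic genes made up 66.3% ± 1.16 of kinesin TPM in DMSO and 48.3% ± 0.504 with MS023. The median difference over all 14 mitotic genes, whether tested or not, was -1.25, that over the 15 transport genes was -0.033, and that over all genes tested was -0.11. Both groups with Cas9 stayed close to each other, at 393 ± 7.63 TPM in isgCtrl and 385 ± 6.38 TPM in PRMT1-KO for mitotic kinesins, and at 161 ± 7.56 and 148 ± 8.02 TPM for transport kinesins. These sums are a description, and no test was run on them.

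**Figure D1:**
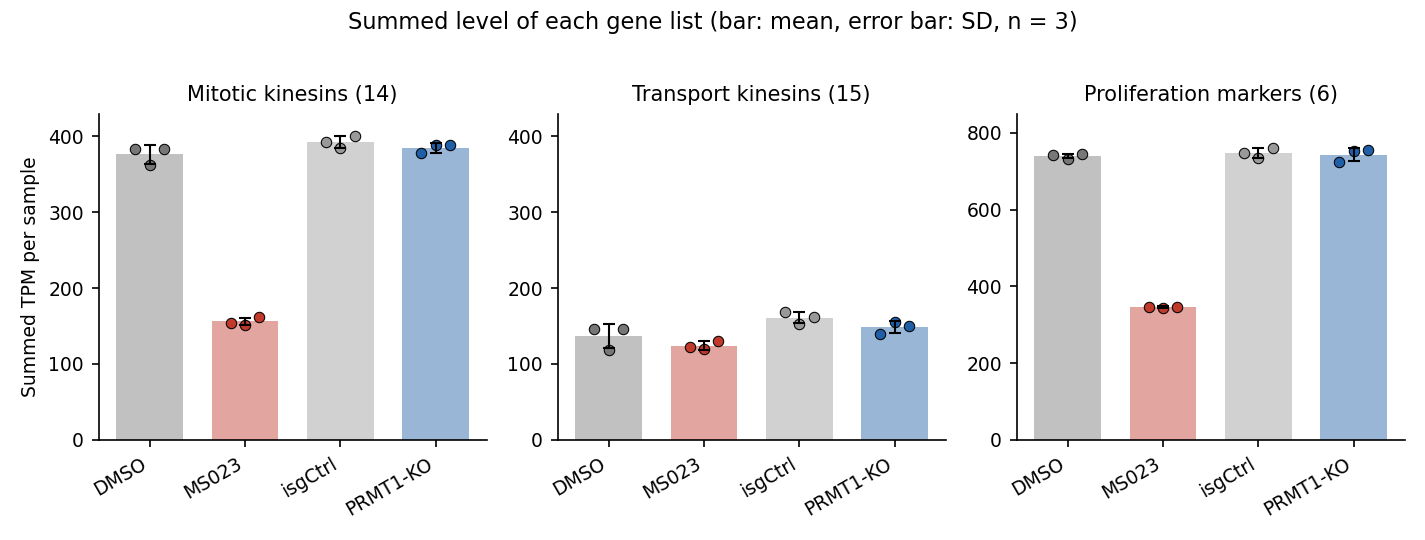
Summed TPM per sample (y axis, from 0, with a wider scale in the right panel) of mitotic kinesins, transport kinesins and 6 proliferation markers in the 4 groups; points are samples, bars the mean and error bars the SD of 3. Mitotic sums of 152 to 162 TPM with MS023 lie below all other samples, at 362 to 400 TPM, while transport sums of MS023 and DMSO overlap.

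Proliferation markers moved with the mitotic kinesins, and their part in the result was not tested. All 6 of them (MKI67, TOP2A, PCNA, MCM2, CCNB1 and CCNA2) were called lower with MS023, by 0.63 to 1.63 (19.3% of all genes were called lower), and their sum went from 739 ± 5.97 to 346 ± 2.35 TPM, to 46.8% of DMSO. In PRMT1-KO none of the 6 was called in limma, 0 had an unadjusted p under 0.05 (18.6% of all genes did), and the sum was 99.5% of isgCtrl.

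Since the mitotic members moved together, their promoters were searched for the letters of short elements known from promoters of cell cycle genes. These were TTTGAA, the core of the element called CHR, its relative TTCGAA, and the CCAAT box, each on both strands (TTCAAA and ATTGG in the opposite direction; TTCGAA reads the same on both). RefSeq windows of 250 bases before and 50 after the start (GRCh38.p14) were found for 34 of the 42 members, in 43 windows. TTTGAA was in 10 of 15 windows of mitotic kinesins (66.7%), in 1 of 16 windows of transport kinesins (6.25%, KIF5B), in 0 of 12 windows of other kinesins and in 15.2% of all 35116 windows. CCAAT was in 11 of 15 mitotic windows (73.3%) and in 5 of 16 transport windows (31.2%). It was in 4 of 12 windows of other kinesins (33.3%) and in 34.6% of all windows. Both stood in 9 of 15 mitotic windows (60.0%), in 1 of 16 transport windows (6.25%, KIF5B), in 0 of 12 windows of other kinesins and in 5.90% of all windows. The mitotic windows with TTTGAA, and those with both, include that of KIF4B, which was at most 0.10 in any sample and was not tested. TTCGAA was in both windows of KIF22 and in that of KIF24, and in 1.45% of all windows. The 2 KIF22 windows overlap and hold 1 and the same TTCGAA site. Within a window, 0 pairs of matches shared a base. A match is a run of letters, not a measured binding site. The 100 bases before the start are shown for mitotic kinesins with both elements, with CCAAT alone, with CCAAT and TTCGAA or with neither, and for the transport kinesin KIF1C, which has neither. Capitals mark matches.
KIF11 (chr10:92593030-92593129, plus strand): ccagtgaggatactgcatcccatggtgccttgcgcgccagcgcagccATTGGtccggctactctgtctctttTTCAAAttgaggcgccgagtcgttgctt
KIF4A (chrX:70290004-70290103, plus strand): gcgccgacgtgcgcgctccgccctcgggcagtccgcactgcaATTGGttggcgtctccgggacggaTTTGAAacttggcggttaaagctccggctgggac
KIF18A (chr11:28108157-28108256, minus strand): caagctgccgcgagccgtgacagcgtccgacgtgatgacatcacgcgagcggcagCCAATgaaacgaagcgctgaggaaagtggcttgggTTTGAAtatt
KIF23 (chr15:69414249-69414348, plus strand): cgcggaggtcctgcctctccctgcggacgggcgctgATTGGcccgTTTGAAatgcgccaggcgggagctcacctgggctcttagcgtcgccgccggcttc
KIF20A (chr5:138179012-138179111, plus strand): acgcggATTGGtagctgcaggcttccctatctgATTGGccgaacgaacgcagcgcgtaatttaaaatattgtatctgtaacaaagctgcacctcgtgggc
KIF22 (chr16:29790651-29790750, plus strand): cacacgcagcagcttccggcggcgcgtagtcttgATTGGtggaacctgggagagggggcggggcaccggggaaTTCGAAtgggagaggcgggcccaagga
KIF2C (chr1:44739737-44739836, plus strand): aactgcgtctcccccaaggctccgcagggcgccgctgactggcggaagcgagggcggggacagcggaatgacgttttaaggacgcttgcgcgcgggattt
KIF1C (chr17:4997850-4997949, plus strand): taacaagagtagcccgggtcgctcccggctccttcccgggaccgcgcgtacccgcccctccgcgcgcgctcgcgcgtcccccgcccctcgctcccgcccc

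In KIF11 the CCAAT match began 53 and the TTTGAA match 28 bases before the start, in KIF4A 58 and 34, and in KIF18A 45 and 10. In KIF23 the 2 matches were closer together, at 64 and 55 bases. KIF20A had 2 CCAAT matches, and KIF22 had TTCGAA 27 bases before the start. KIF2C had none of these letters in its window and KIF22 had no TTTGAA, and both were called lower with MS023, by 1.31 and 0.77.

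Of the motors that set the distance between spindle poles, KIF11 and KIF15 push antiparallel microtubules apart and KIFC1 pulls them together. On the log2(TPM+1) scale, KIF11 was at 4.88, 4.73 and 4.70 in DMSO and at 3.59, 3.43 and 3.67 with MS023, and fell by 1.21 (SE 0.093, adjusted p = 0.000279). KIF15 was at 3.74, 4.07 and 3.72 in DMSO and at 2.53, 2.11 and 3.14 with MS023, and fell by 1.25 (SE 0.27, adjusted p = 0.0102). Its MS023 replicates were the most spread of any tested kinesin in any group, with an SD of 0.52, but the highest still lay below the lowest DMSO replicate. KIFC1 was at 5.80, 5.76 and 5.86 in DMSO and at 4.21, 4.05 and 4.18 with MS023, and fell by 1.66 (SE 0.072, adjusted p = 6.80e-05). In TPM this was from 55.0 ± 2.07 to 16.8 ± 1.02. The MS023 and DMSO samples of these 3 genes did not overlap, as was the case for 59.5% of all genes tested.

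KIF4A, KIF22, KIF18A and KIF18B act on chromosomes and on microtubule ends near them. KIF4A is a chromatin-bound motor that helps to shape chromosomes and the central spindle. KIF4A was at 3.76, 3.55 and 3.63 in DMSO and at 2.27, 2.24 and 2.29 with MS023, and fell by 1.38 (SE 0.075, adjusted p = 0.000102). KIF22, which pushes chromosome arms away from the poles, was the highest kinesin in every group. KIF22 was at 6.69, 6.67 and 6.75 in DMSO and at 5.91, 5.93 and 5.96 with MS023, and fell by 0.77 (SE 0.059, adjusted p = 0.000270). It kept 58.1% of its DMSO level in TPM, the largest share among tested mitotic kinesins. KIF18A and KIF18B shorten or restrain microtubule plus ends at and outside the kinetochore. KIF18A was at 3.43, 3.31 and 3.36 in DMSO and at 2.51, 2.24 and 2.08 with MS023, and fell by 1.09 (SE 0.12, adjusted p = 0.000900). KIF18B was at 4.34, 4.22 and 4.40 in DMSO and at 3.08, 2.98 and 3.26 with MS023, and fell by 1.21 (SE 0.10, adjusted p = 0.000309). KIF4B, an intronless gene nearly identical to KIF4A, was at most 0.10 in any sample, and reads of these copies could be split between them.

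KIF2C, also called MCAK, takes microtubule ends apart at centromeres and corrects wrong attachments. KIF2C was at 6.14, 6.05 and 6.13 in DMSO and at 4.74, 4.86 and 4.79 with MS023, and fell by 1.31 (SE 0.066, adjusted p = 8.86e-05). The fall was from 67.8 ± 2.37 to 26.8 ± 1.13 TPM. KIF2B, its relative at kinetochores, was listed at 0 in all 12 samples.

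The 4 motors of the midzone and of cytokinesis fell by 1.25 to 1.75. KIF14, which brings citron kinase to the midbody, had the largest fall among genes with a KIF name. KIF14 was at 3.88, 3.69 and 3.72 in DMSO and at 1.93, 2.02 and 2.10 with MS023, and fell by 1.75 (SE 0.084, adjusted p = 8.27e-05). In TPM this left 24.2% of DMSO. KIF20A (MKLP2) carries the chromosomal passenger complex to the midzone. KIF20A was at 4.38, 4.28 and 4.49 in DMSO and at 2.59, 2.66 and 2.85 with MS023, and fell by 1.69 (SE 0.10, adjusted p = 0.000121). KIF23 (MKLP1) is the motor subunit of centralspindlin, which gathers midzone microtubules. KIF23 was at 4.96, 4.63 and 4.88 in DMSO and at 3.26, 3.29 and 3.20 with MS023, and fell by 1.57 (SE 0.10, adjusted p = 0.000150). KIF20B is a further motor of late cytokinesis. KIF20B was at 3.55, 3.45 and 3.50 in DMSO and at 2.16, 2.30 and 2.28 with MS023, and fell by 1.25 (SE 0.07, adjusted p = 0.000112). Without KIF4A, KIF14, KIF20A and KIF20B, which the study itself singled out from these samples, 8 of 8 tested mitotic kinesins were called lower. Over all genes tested, 19.3% were called lower.

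**Figure D2:**
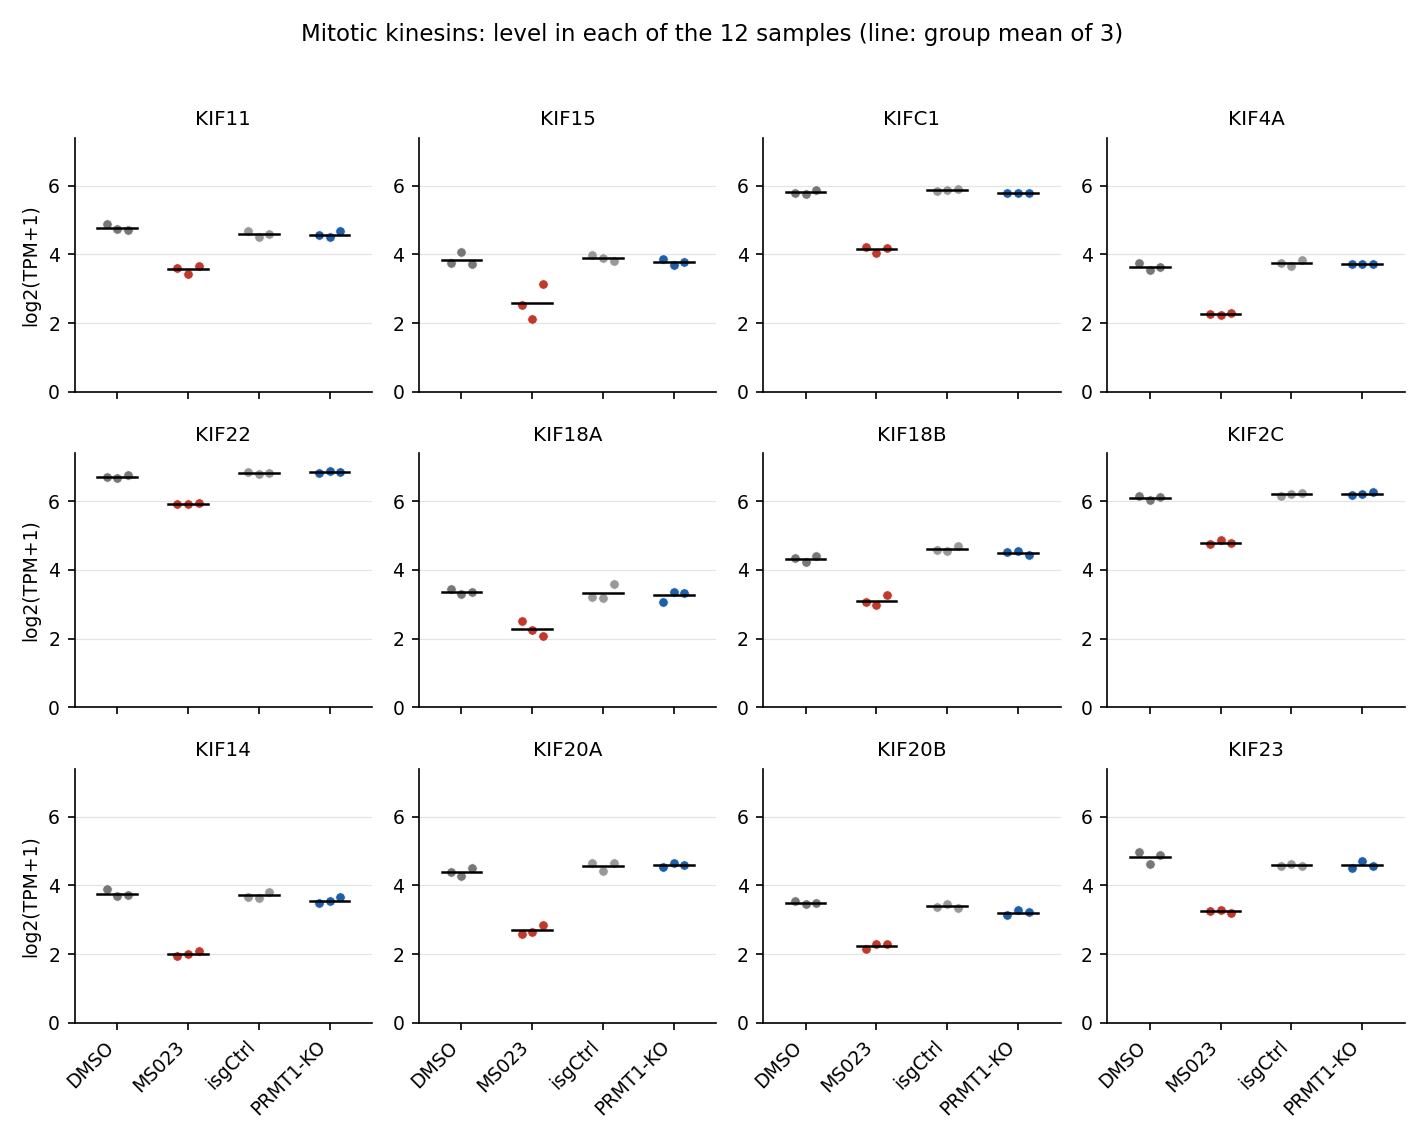
Level in log2(TPM+1) (y axis, from 0) of the 12 tested mitotic kinesins in the 12 samples; points are the 3 replicates of DMSO, MS023, isgCtrl and PRMT1-KO, and lines are group means. In each panel the 3 MS023 points lie below the 9 others, while isgCtrl and PRMT1-KO lie at similar heights.

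Among transport kinesins, KIF1C, a kinesin that moves vesicles and messenger RNA, had the highest level. It was at 5.84, 5.45 and 5.97 in DMSO and at 5.43, 5.42 and 5.58 with MS023, a difference of -0.27 (SE 0.15, adjusted p = 0.166). The second DMSO replicate lay close to the MS023 samples and the groups overlapped. KIFC3, a motor that walks towards microtubule minus ends, was at 4.68, 4.56 and 4.71 in DMSO and at 4.37, 4.59 and 4.36 with MS023, a difference of -0.21 (SE 0.091, adjusted p = 0.105). KIF1B, which moves mitochondria and synaptic vesicle precursors, was at 2.56, 2.40 and 2.48 in DMSO and at 2.86, 2.79 and 3.01 with MS023. All 3 treated samples of KIF1B were above all controls, with a difference of 0.41 (SE 0.084, adjusted p = 0.00907) that stayed below the fold threshold. Its difference was above that threshold, and it was called higher, after median-ratio scaling (0.50) and after quantile normalization (0.54).

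The 5 lower transport kinesins (KIF3C, KIF5B, KIF1C, KIFC3 and KIF3B) were between -0.28 and -0.11, and the 5 higher (KIF3A, KIF16B, KIFC2, KIF13B and KIF1B) between 0.074 and 0.41. Adjusted p was under 0.05 for KIF5B, the heavy chain of conventional kinesin (-0.28, 95% CI -0.49 to -0.067), for KIF13B (0.37, 0.074 to 0.67) and for KIF1B (0.41, 0.20 to 0.61), each under the fold threshold. An adjusted p under 0.05 was reached by 48.8% of all genes. For KIF3A, a subunit of the motor of cilia, the interval was -0.24 to 0.38, and for KIF3C, with the most spread DMSO replicates (1.82, 1.12 and 1.54), it was -0.78 to 0.22. Each of the 12 mitotic differences lay below each of the 10 transport differences. The other 5 transport kinesins (KIF1A, KIF5A, KIF5C, KIF13A and KIF17) had no group mean above 1 and were not tested, so this order covers tested members only.

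**Figure D3:**
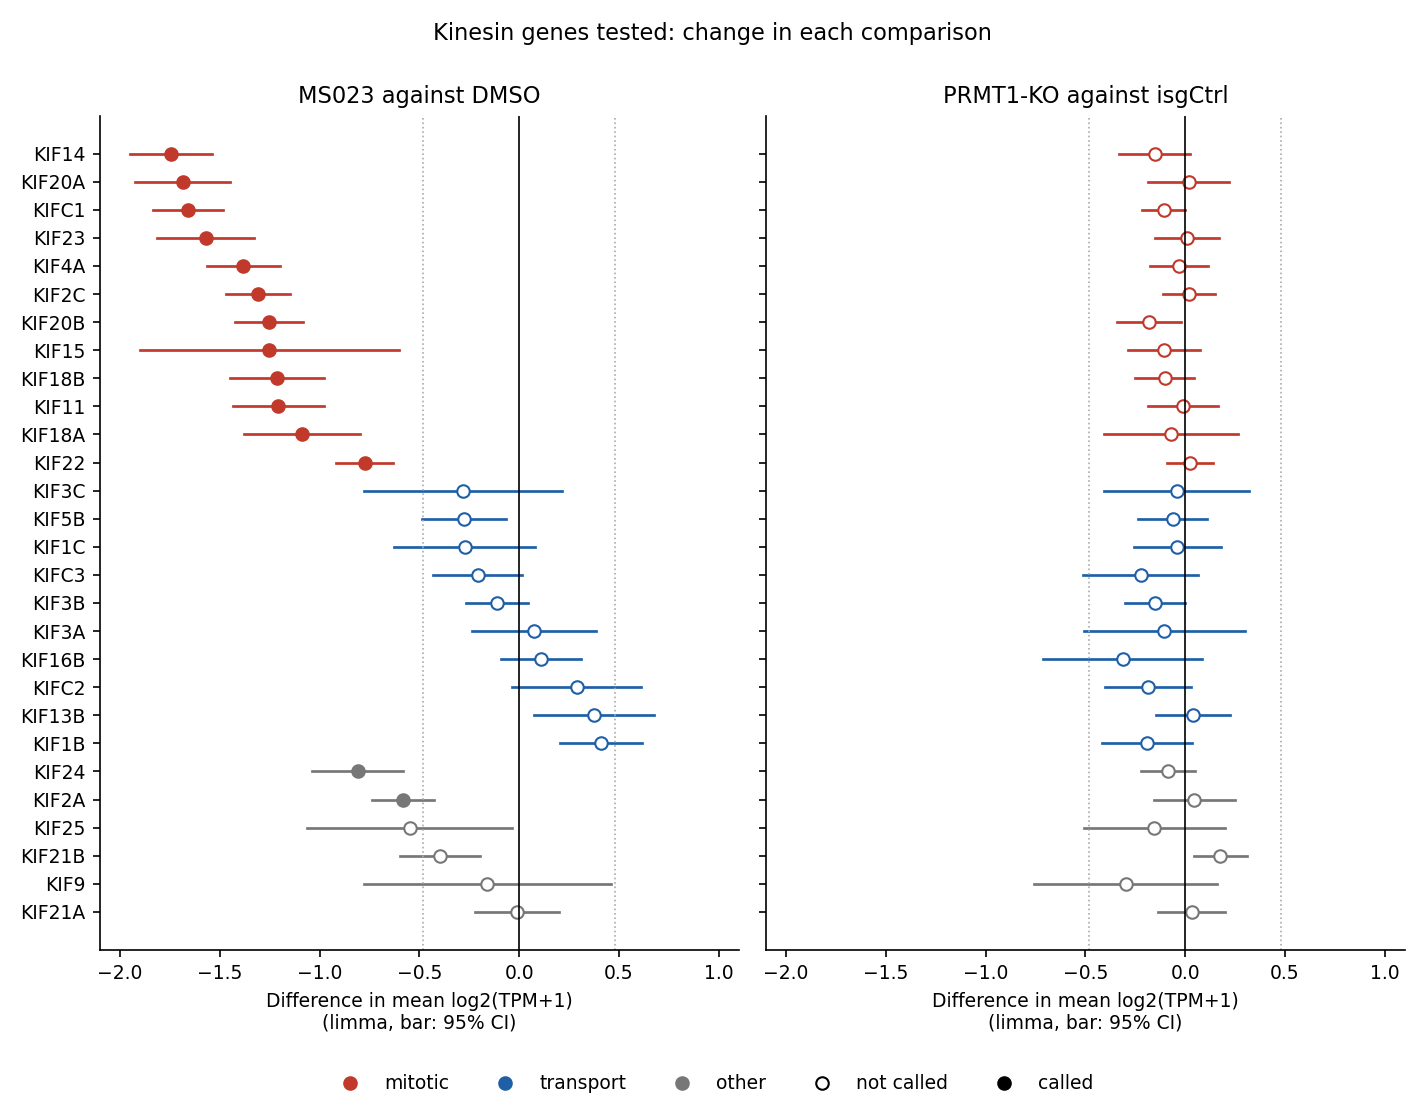
Difference in mean log2(TPM+1) with 95% CI (x axis) of the 28 tested kinesins, MS023 minus DMSO on the left and PRMT1-KO minus isgCtrl on the right, coloured by role; dotted lines mark the threshold of 0.48 and filled points are called genes. Left, the mitotic points lie between -1.75 and -0.77 and the transport points between -0.28 and 0.41. Right, no point is filled.

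Of 6 other kinesins tested with MS023, 2 were called, both lower, against 30.9% of all genes called in either direction. KIF2A, which shortens microtubules at spindle poles and in neurons, was at 4.67, 4.67 and 4.69 in DMSO and at 4.14, 4.01 and 4.13 with MS023. It fell by 0.58 (SE 0.064, adjusted p = 0.000900), but by 0.43, under the fold threshold, after quantile normalization. Despite its spindle role KIF2A was not counted with the mitotic kinesins, where the smallest fall was 0.77 for KIF22. KIF24, which restrains the growth of cilia, was at 1.55, 1.25 and 1.51 in DMSO and at 0.65, 0.61 and 0.62 with MS023, and fell by 0.81 (SE 0.094, adjusted p = 0.00111). KIF24 passed the filter through DMSO alone, as did KIF25, so these could only be tested because the control was high. KIF25 differed by -0.55 (adjusted p = 0.0742). The third MS023 replicate of KIF25 lay at 1.25 against 0.50 and 0.71 in the others. Without that replicate, KIF25 was called as well and the count of called kinesins was 15. KIF25 was also called in the limma fit on all 12 samples, with no replicate left out (adjusted p = 0.0346). KIF21B, which makes microtubules pause, differed by -0.40 (adjusted p = 0.00957), and KIF21A and KIF9 by -0.012 and -0.16. With these, 14 of 28 tested kinesins were called with MS023, all lower.

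**Figure D4:**
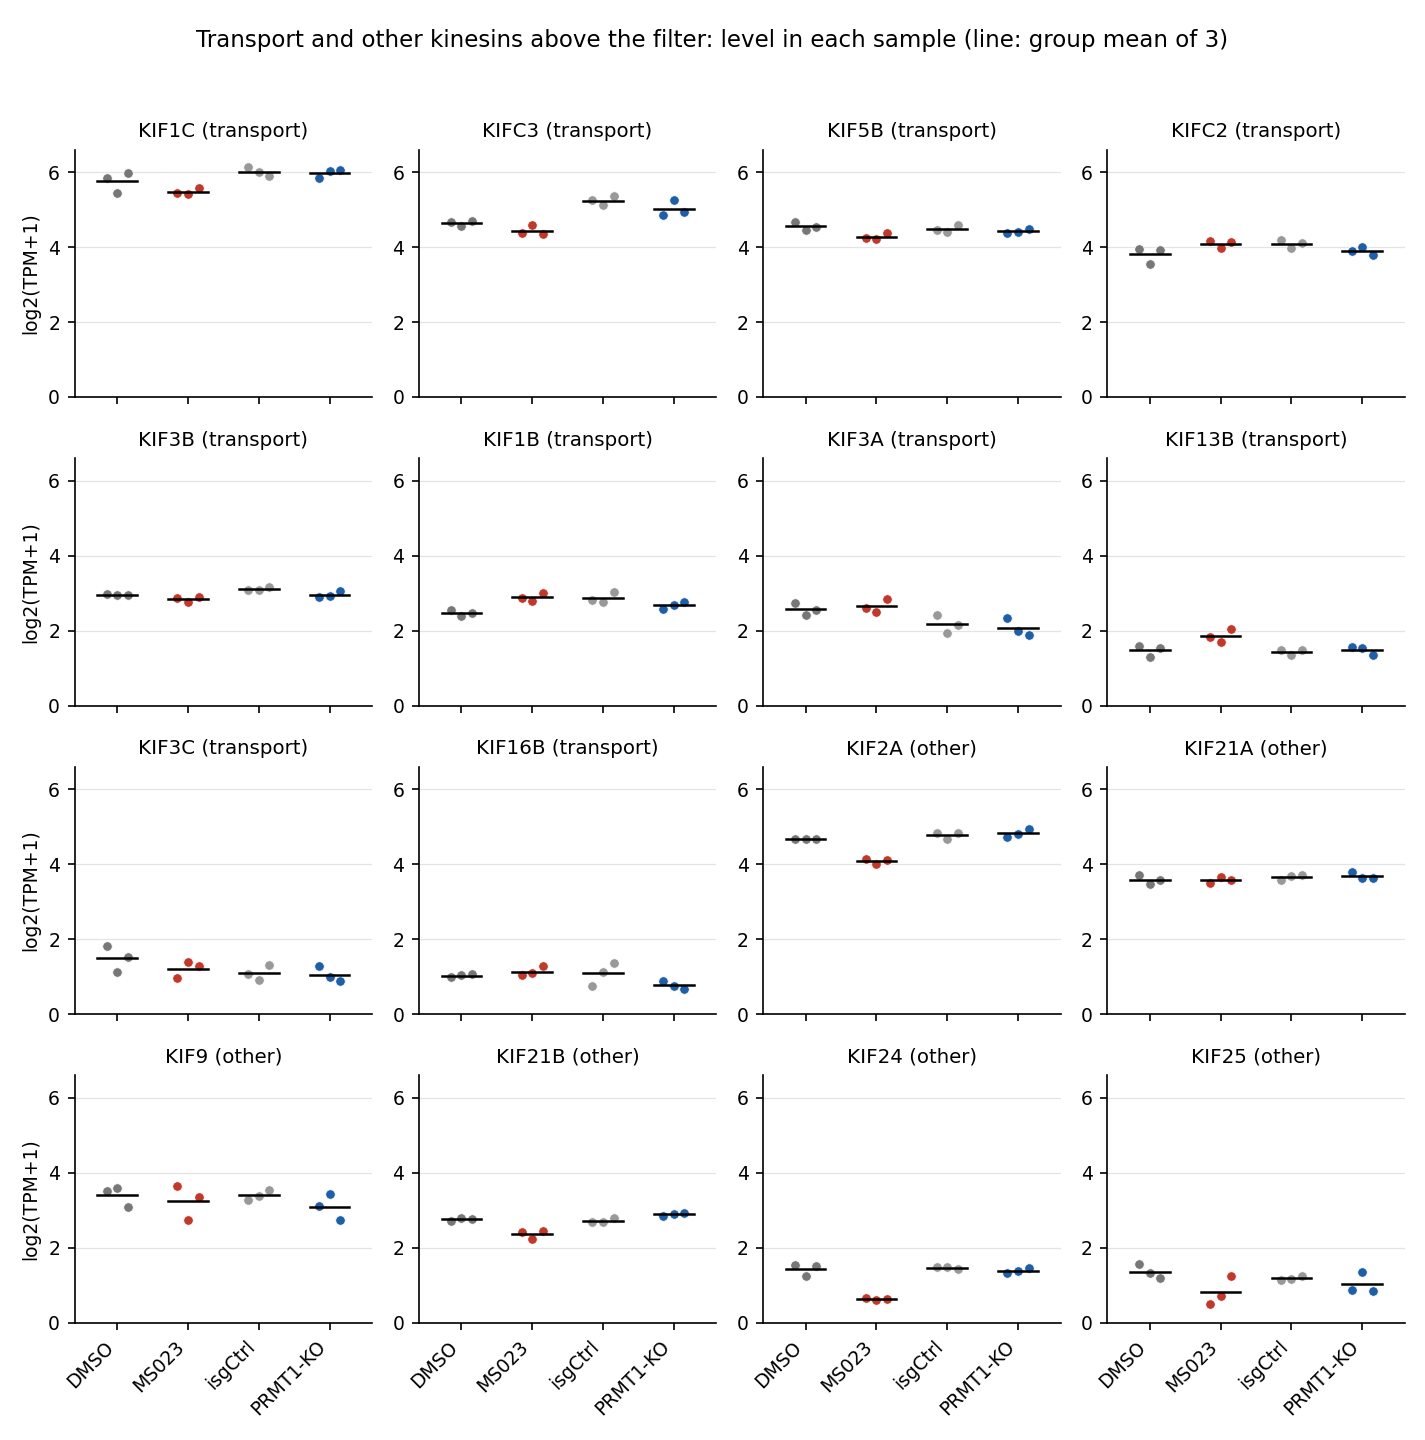
Level in log2(TPM+1) (y axis, from 0) of 10 transport and 6 other kinesins above the filter in each of the 12 samples; points are replicates and lines group means. KIF2A, KIF24 and KIF21B are lower in the 3 MS023 samples than in all others, and so, by a narrow gap, are the transport kinesins KIF5B and KIF3B. KIF1C, KIF9 and KIF3C show replicates spread over a range as wide as the gap between groups.

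The order of kinesins by level per length also differed between groups. In DMSO it was KIF22 (103 ± 2.84 TPM), KIF2C (67.8 ± 2.37), KIFC1 (55.0 ± 2.07) and KIF1C (53.5 ± 9.80), of which the last 2 did not differ beyond their spread. With MS023 it was KIF22 (60.1 ± 0.938 TPM), KIF1C (43.7 ± 2.89), KIF2C (26.8 ± 1.13) and KIFC3 (20.8 ± 2.07), and transport genes took the second and the fourth place. Neither KIFC3 and KIF5B (18.4 ± 1.17) nor KIF5B and KIFC1 (16.8 ± 1.02) were further apart than their summed SD. In isgCtrl and PRMT1-KO the first 6 were the same, KIF22, KIF2C, KIF1C, KIFC1, KIFC3 and KIF2A. Of the 42 members, 28 had a mean above 1 in at least one group, 24 were above 1 in all 12 samples, 12 were above 0 but never above 1 in a group mean, and KIF2B and KIF12 were listed at 0 throughout.

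Deletion of PRMT1 gave no called kinesin in limma among 28 tested. The 12 mitotic genes differed from isgCtrl by -0.18 to 0.024 and their 95% CIs ran from -0.41 to 0.26 at the widest, so a change of the size seen for KIF22 with MS023 lies outside each of them. Over all 12285 genes tested, 0.781% were called. At an unadjusted p under 0.05, 3 kinesins passed, against 18.6% of all genes. KIF20B was at 3.36, 3.47 and 3.35 in isgCtrl and at 3.13, 3.28 and 3.22 in PRMT1-KO, a difference of -0.18 (SE 0.065, adjusted p = 0.228). KIF21B was at 2.69, 2.69 and 2.79 in isgCtrl and at 2.86, 2.90 and 2.94 in PRMT1-KO, a difference of 0.18 (SE 0.054, adjusted p = 0.184). KIF3B differed by -0.15 (adjusted p = 0.268). In these 3 genes, as in KIFC1, the groups did not overlap, which was true of 26.7% of all genes.

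No spindle pole motor was called between the Cas9 groups. KIF11 was at 4.67, 4.51 and 4.58 in isgCtrl and at 4.55, 4.50 and 4.67 in PRMT1-KO (-0.012). KIF15 was at 3.97, 3.90 and 3.80 in isgCtrl and at 3.88, 3.69 and 3.79 in PRMT1-KO (-0.11). KIFC1 was at 5.86, 5.89 and 5.91 in isgCtrl and at 5.78, 5.78 and 5.77 in PRMT1-KO (-0.11, 95% CI -0.22 to 0.0011). Replicates of KIFC1 were close, and the knockout samples lay just below the controls. Among chromosome motors, KIF4A was at 3.76, 3.66 and 3.83 in isgCtrl and at 3.71, 3.73 and 3.71 in PRMT1-KO (-0.032). KIF22 was at 6.86, 6.79 and 6.83 in isgCtrl and at 6.83, 6.88 and 6.84 in PRMT1-KO (0.024). KIF18A was at 3.21, 3.19 and 3.58 in isgCtrl and at 3.07, 3.36 and 3.34 in PRMT1-KO (-0.072). The third isgCtrl replicate of KIF18A stood above the other two by more than the difference between the group means. KIF18B was at 4.59, 4.55 and 4.68 in isgCtrl and at 4.51, 4.55 and 4.45 in PRMT1-KO (-0.10), with overlapping groups.

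The depolymerase and the midzone motors overlapped between isgCtrl and PRMT1-KO, except for KIF20B. KIF2C was at 6.14, 6.21 and 6.23 in isgCtrl and at 6.17, 6.20 and 6.26 in PRMT1-KO (0.018). KIF14 was at 3.68, 3.64 and 3.81 in isgCtrl and at 3.48, 3.53 and 3.65 in PRMT1-KO (-0.15, 95% CI -0.33 to 0.026). KIF20A was at 4.66, 4.42 and 4.66 in isgCtrl and at 4.54, 4.64 and 4.61 in PRMT1-KO (0.017). The direction was not shared by the midzone motors, since KIF14 was lower and KIF20A slightly higher in the mean. KIF23 was at 4.56, 4.64 and 4.57 in isgCtrl and at 4.52, 4.70 and 4.57 in PRMT1-KO (0.0087). Among the 10 transport kinesins tested, differences ran from -0.31 for KIF16B, which passed the filter through isgCtrl alone, to 0.039 for KIF13B. KIF1C was at 6.14, 6.0 and 5.90 in isgCtrl and at 5.84, 6.02 and 6.06 in PRMT1-KO (-0.039). KIFC3 was at 5.25, 5.12 and 5.35 in isgCtrl and at 4.87, 5.24 and 4.94 in PRMT1-KO (-0.22, 95% CI -0.51 to 0.064). The second PRMT1-KO replicate of KIFC3 lay within the control range. Of the other kinesins, KIF2A was at 4.84, 4.68 and 4.83 in isgCtrl and at 4.73, 4.80 and 4.95 in PRMT1-KO (0.046). KIF24 was at 1.5, 1.5 and 1.43 in isgCtrl and at 1.33, 1.38 and 1.45 in PRMT1-KO (-0.087). Both genes, called lower with MS023, overlapped here.

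The effect of MS023 minus that of the knockout was tested in one model over all 12 samples. It was called for 16 of 28 kinesins, 15 lower and 1 higher, against 14.7% and 9.69% of 13256 genes. All 12 tested mitotic kinesins were among the 15, with differences of effects from -1.70 for KIF20A to -0.80 for KIF22. KIF2A (-0.63), KIF24 (-0.72) and KIF21B (-0.57, adjusted p = 0.00114) were the other three. KIF21B was at -0.40 with MS023 and at 0.18 in the knockout, neither of which was called by itself. KIF1B was the gene called higher, with a difference of effects of 0.60 (SE 0.13, adjusted p = 0.00440), from 0.41 with MS023 and -0.19 in the knockout. In the Cas9 samples KIF1B was at 2.82, 2.75 and 3.03 in isgCtrl and at 2.58, 2.67 and 2.77 in PRMT1-KO. KIFC2, a minus-end motor, had 0.48 (adjusted p = 0.0471), just under the fold threshold. The labels give neither Cas9 nor doxycycline for the DMSO and MS023 cells, so in this difference the agent and the cells cannot be told apart.

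Proteins that work with mitotic kinesins were also lower with MS023. Of 15 partners, 14 were called lower with MS023 and none higher, against 19.3% of all genes called lower. CENPE, PSRC1 and FAM83D were already named by the study as suppressed by MS023 in these samples. Their calls are therefore no separate support. PSRC1, which helps KIF2 motors at the spindle, was at 4.15, 4.19 and 4.06 in DMSO and at 1.79, 1.88 and 1.72 with MS023, and fell by 2.33 (SE 0.074, adjusted p = 5.16e-05). CENPE, a kinetochore kinesin whose symbol lies outside the KIF names, was at 3.78, 3.63 and 3.64 in DMSO and at 1.60, 1.56 and 1.78 with MS023, and fell by 2.04 (SE 0.086, adjusted p = 6.16e-05). Both fell by more than any gene with a KIF name. AURKA, the spindle pole kinase, was at 6.42, 6.41 and 6.38 in DMSO and at 4.77, 4.61 and 4.58 with MS023, and fell by 1.75 (SE 0.074, adjusted p = 6.16e-05). MAPRE1, a plus-end binding protein that is used outside mitosis too, differed by -0.25 and was not called. In PRMT1-KO none of the 15 was called (0.781% of all genes were), and 5 had an unadjusted p under 0.05 (18.6% of all genes).

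Partners of transport motors lay on both sides of 0. Of 15 tested subunits and adaptors of transport kinesins, 1 was called with MS023 (30.9% of all genes were), KTN1, a kinesin-binding protein of the endoplasmic reticulum, which was at 5.83, 5.69 and 5.67 in DMSO and at 5.0, 5.22 and 5.22 with MS023 and fell by 0.58 (SE 0.092, adjusted p = 0.00344). The other 14 lay between -0.18 and 0.47, and in PRMT1-KO none of 14 was called and 1 had an unadjusted p under 0.05. Cytoplasmic dynein and dynactin carry cargo towards microtubule minus ends, opposite to the transport kinesins other than KIFC2 and KIFC3. Of their 27 tested genes, 1 was called lower and 2 higher, against 19.3% and 11.6% of all genes. SPDL1, which recruits dynein to kinetochores in mitosis, was at 5.44, 5.24 and 5.68 in DMSO and at 4.33, 3.87 and 4.08 with MS023, and fell by 1.36 (SE 0.16, adjusted p = 0.00114). NDEL1, a regulator of dynein, was at 4.41, 4.46 and 4.63 in DMSO and at 5.13, 5.11 and 5.17 with MS023, higher by 0.63 (adjusted p = 0.00133), and BICD1, a dynein adaptor (2.93, 2.58 and 3.16 in DMSO, 3.48, 3.29 and 3.45 with MS023), by 0.52 (adjusted p = 0.0328). The NDEL1 samples did not overlap between groups. The median was 0.026 over the 27 dynein genes and 0.022 over the 15 kinesin adaptors. In PRMT1-KO none of 26 dynein genes was called and 0 had an unadjusted p under 0.05, against 18.6% of all genes.

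**Figure D5:**
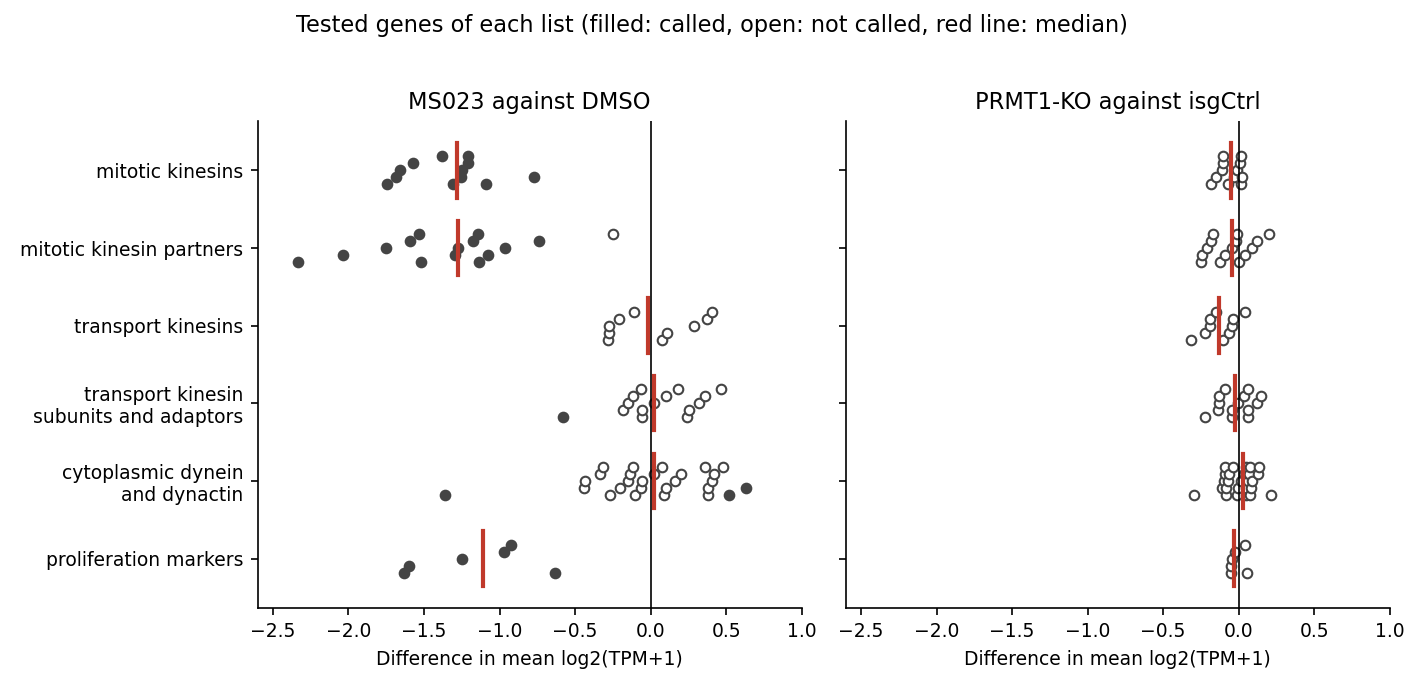
Difference in mean log2(TPM+1) (x axis) of each tested gene in 6 lists, MS023 minus DMSO on the left and PRMT1-KO minus isgCtrl on the right; filled points are called, open points are not, and the red line is the median of tested genes. Left, mitotic kinesins, their partners and proliferation markers lie below 0, while transport kinesins, their adaptors and dynein lie on both sides of it, with SPDL1 at -1.36.

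Some kinesin genes overlap others in GENCODE v44 on GRCh38, and whether the reads kept strand is not given in the sources used here. On the opposite strand, KIF20A (chr5:138178719-138187723) overlaps BRD8 and CDC23, KIF4A (chrX:70290104-70420886) overlaps PDZD11, KIF2A (chr5:62306162-62391025) overlaps DIMT1 and KIF24 (chr9:34252380-34329268) overlaps UBAP1, so their values may hold reads of those genes. KIF15 (chr3:44761721-44873376) overlaps TMEM42 on its own strand. Overlaps were searched only among annotated genes whose symbol is also in the deposited gene table. Of the called kinesins, KIF14 (chr1:200551497-200620751), KIF2C (chr1:44739818-44767767), KIF22 (chr16:29790727-29805385), KIF20B (chr10:89701590-89774939) and KIF23 (chr15:69414246-69448427) overlap no other gene of that set.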

How the data were processed

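RNA-seq of 12 JJN3 samples was analysed from the gene table that the authors deposited, in log2(TPM+1). By the Methods of the study, Trimmomatic removed adapters, STAR aligned reads to hg38 (GENCODE V35 annotation) and Salmon estimated transcript levels; tool versions are not given in the sources used here. Nothing upstream was rerun. TPM sum to the same total in each sample, so depth and counting error are unknown from these values.

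Groups were taken from the labels. For each comparison, genes whose mean exceeded 1 in at least one of its groups were fitted with limma 3.58.1 (R 4.3.3, eBayes without trend) on the 6 samples of that comparison, and the difference of both effects on all 12 samples. P-values were adjusted by Benjamini-Hochberg over all genes tested. Called genes had an adjusted p under 0.05 and an absolute difference above 0.48, thresholds taken from the Methods of the study. How the filter was applied there is not given in full. With MS023, 3986 of 12903 genes were called here, far more than the study counted, and the reason was not tested. For PRMT1-KO, 96 genes were called, close to the count of the study. The genes called here need not be those the study called. Differences are on the log2(TPM+1) scale, which understates changes of low genes. The exact permutation test of 3 against 3 samples cannot go below p = 0.1 and was not used for calls.

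The members and lists were chosen with earlier results of these data known. Values are given per sample for mitotic kinesins above the filter, for other members called or among the 5 highest, and for up to 3 called changes of each further list. In simulated data made from these samples, the MS023 fit recovered 84 of 100 genes changed by 1 and 94 of 100 changed by 1.5, and the PRMT1-KO fit 92 and 99 of 100, with 11 and 2 false calls. Only 200 genes per comparison were changed, all with a mean above 2, so recovery of lower genes is not known. In the real MS023 comparison 30.9% of all genes were called, a far larger share than was changed in the simulation. Promoter windows were taken from RefSeq (GRCh38.p14), and positions from GENCODE v44. Alternatives were other filters, a pseudocount of 0.1, other scalings, eBayes with trend, a replicate block, all 12 samples in one fit, other fold thresholds and each replicate left out.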

Additional observations from a re-analysis of the deposited data

Results flagged for a closer look

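The effect of MS023 differed from the effect of the PRMT1 knockout for 16 of 28 kinesins in the test of the difference itself. These were 15 lower and 1 higher, against 14.7% and 9.69% of all 13256 genes tested. The 12 tested mitotic kinesins, KIF2A, KIF24 and KIF21B had the lower effect with MS023, and KIF1B had the higher. The knockout was made in Cas9 cells with doxycycline, and in this difference the agent and the cells cannot be told apart.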

How the results depend on the processing

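The count of kinesins called with MS023 was 14, and it was 13 to 15 under other filters, scalings and priors, 14 to 15 with each replicate left out, 18 with no fold threshold and 11 at an absolute difference above 1. Without the 4 kinesins singled out by the study, an alternative added after seeing the data, it was 10. For PRMT1-KO the count was 0 in every alternative run, and for the difference of effects it was 16, with 16 to 17 over left-out replicates and 11 to 17 over the others. KIFC2 passed the fold threshold in the difference of effects in 7 alternatives. The median over mitotic kinesins with MS023 stayed between -1.37 and -1.13. That over transport kinesins, -0.033, changed sign after median-ratio scaling (0.015), after quantile normalization (0.036), without the first DMSO replicate (0.069) and without the second MS023 replicate (0.10), and the cause was not tested. With the replicate number as a block, 14, 0 and 16 kinesins were called, as without it, while over all genes the PRMT1-KO count went from 96 to 0. Samples with the same number correlated by -0.14 to 0.10 in their deviations. The mean was 0.065 for MS023 and DMSO, against -0.033 for other pairs, and -0.047 against 0.024 for PRMT1-KO and isgCtrl. Whether the numbers pair the samples is not settled by such weak values. Over all genes the PRMT1-KO count was also 48 with no filter, 2 to 21 with a replicate left out, 157 with no fold threshold and 9 above 1, and the MS023 count of 3986 became 6300 and 1083 under those 2 thresholds, while that of the difference of effects, 3231, became 921 above 1. Without stated depth, differences among kinesins below a mean of 1 could not be judged.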

Other observations

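KIF19, a motor that shortens cilia, lay below the filter and was noticed after its values were seen. It was at 0.20, 0.20 and 0.089 in log2(TPM+1) in DMSO and at 0.72, 0.57 and 0.68 with MS023, or 0.121 ± 0.0491 and 0.574 ± 0.0839 TPM (SD, n = 3), and at most 0.059 in the 6 Cas9 samples. When all genes above 0 were fitted it was called higher with MS023 by limma (0.49, adjusted p = 0.00386). The level is low in every group.

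KIF9, a kinesin of motile cilia, varied between replicates within 3 of the 4 groups, at 3.50, 3.61 and 3.10 in DMSO, 3.64, 2.75 and 3.34 with MS023 and 3.12, 3.45 and 2.74 in PRMT1-KO. It overlaps KLHL18 and an antisense gene on the other strand, and the part of their reads in this spread was not tested.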
